A study of Mus musculus with 8 samples.

Results

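The data described here are the input RNA of a YTHDF3 RIP-seq experiment, taken as a measure of which mRNAs became more or less abundant in mouse embryonic fibroblasts (MEFs) after 2 h of nutrient starvation. RIP-seq sequences the RNA that is pulled down with a protein, here YTHDF3, a reader of the m6A mark on mRNA, and the input is RNA of the same lysate before the pulldown. The cells came from wild-type C57BL/6 embryos at day 13.5 post coitum and were used at passage 5 to 6. Normal MEFs were kept in medium with serum, starved MEFs were moved for 2 h to a buffered salt solution (HBSS with HEPES) without serum, and no other difference between the conditions is given in the labels. Each condition had 2 replicates, and polyA RNA was sequenced. Nothing in the labels says that the replicates were separate cultures, so p-values measure only the spread between these samples.

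The deposited lists hold peaks, with the IP reads and the input reads that fell in each. Merging the peaks of the 4 lists wherever they shared 1 bp or more gave 40214 regions, of which the 6621 with a peak in every list are described. They carried 2689 gene names as deposited. The input level of a region is its input reads divided by the summed length of its peaks, on the log2 scale, with the median of each list set to 0. A change is the starved level minus the normal level, within replicate 1 (pair 1) and within replicate 2 (pair 2). Levels used at least 3 reads, so a change that starts from fewer reads is limited by that floor. Reads per kb are printed as counted, and changes and fold changes are taken after the list medians were set to 0.

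Fibroblasts in culture are kept dividing by growth factors in serum, which signal through receptors to the ERK and AKT kinases. ERK signalling switches on immediate-early genes such as the Fos, Jun and Egr transcription factors, and it also switches on its own inhibitors, the Sprouty proteins and the dual-specificity phosphatases (DUSPs). Their mRNAs are short-lived, and many carry AU-rich elements in the 3′ UTR that bind decay factors. AKT keeps the FOXO transcription factors out of the nucleus, and amino acids keep the kinase complex mTORC1 active at the lysosome, where folliculin (FLCN) and its FNIP partners act on the Rag GTPases. When serum and nutrients are withdrawn together, mTORC1 and AKT activity falls and autophagy is induced.

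An AU-rich nonamer, TTATTTATT, was looked for in the regions, and windows around it are printed for 5 genes that hold it and whose input fell in both pairs. Most falling regions do not hold it, among them those of Spry4, Spry2, Jun, Fosb, Egr2, Dusp5, Apln and Shroom4. Capitals mark the nonamer, and the sequence is that of the transcribed strand, 5′ to 3′, read from the GRCm38 genome (mm10). Rgs16 and Lif hold it at 2 places each.
Rgs16, chr1:153745169-153745197 (+), 3′ UTR: gctgctattgTTATTTATTgtggtttgtt
Rgs16, chr1:153745330-153745358 (+), 3′ UTR: gtgttaatatTTATTTATTgttaacaaag
Lif, chr11:4272039-4272067 (+), 3′ UTR: aaaggggcctTTATTTATTatttaaaact
Lif, chr11:4272402-4272430 (+), 3′ UTR: cagattatttTTATTTATTcaatgtcata
Enc1, chr13:97251681-97251709 (+), 3′ UTR: tgtccaaagcTTATTTATTtatctattta
Nuak2, chr1:132332938-132332966 (+), in a region annotated as exon: atgtgctgacTTATTTATTtttttgtgat
Csrnp1, chr9:119972067-119972095 (-), in a region annotated as exon: cactctgaatTTATTTATTtttttatgtt

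TTATTTATT, searched on the transcribed strand of the exon's gene, was present in 15 of 199 falling regions (7.54%), in 2 of 185 rising regions (1.08%) and in 232 of all 6549 regions that lie in an exon (3.54%). Since longer regions hold more of any motif, the density was also counted. It was 0.0783 nonamers per kb in falling regions, 0.00794 in rising regions and 0.0380 in all, while the median spans were 910, 960 and 820 bp. Among regions annotated as 3′ UTR, 7 of 33 falling regions, 1 of 34 rising regions and 109 of 963 regions in all held it. The rising region with the nonamer in a 3′ UTR is in Per1. The shorter pentamer ATTTA, which is contained in the nonamer, was found 0.913 times per kb in falling, 0.524 times in rising and 0.731 times in all regions. These are matches of letters, and whether a decay factor bound there was not measured.

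In both pairs, 187 regions in 154 genes rose and 204 regions in 148 genes fell by at least 1.8-fold, without a test. These were 2.82% and 3.08% of the 6621 regions. The members just inside and just outside this cutoff had a smaller change of 0.85 and 0.84 (rising) and of -0.85 and -0.85 (falling). A change in the same direction in both pairs, of any size, was seen in 2219 regions upwards (33.5%) and in 1966 regions downwards (29.7%). The changes of the 2 pairs correlated with r = 0.36 across the 6621 regions, which share the 4 libraries and are not independent. By edgeR's quasi-likelihood test with a term for the replicate number and Benjamini-Hochberg adjustment, 146 regions rose (2.28%) and 175 fell (2.74%) of 6392 with enough reads, and 80 and 112 of these also passed 1.8-fold in both pairs. The edgeR calls depended on how the replicates were treated: without the replicate term 14 rose and 47 fell, all among those called with it. The share of rising regions among the calls was 45.5%, and 34.7% when TMM factors replaced the list medians, an alternative chosen after seeing the data.

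**Figure D1:**
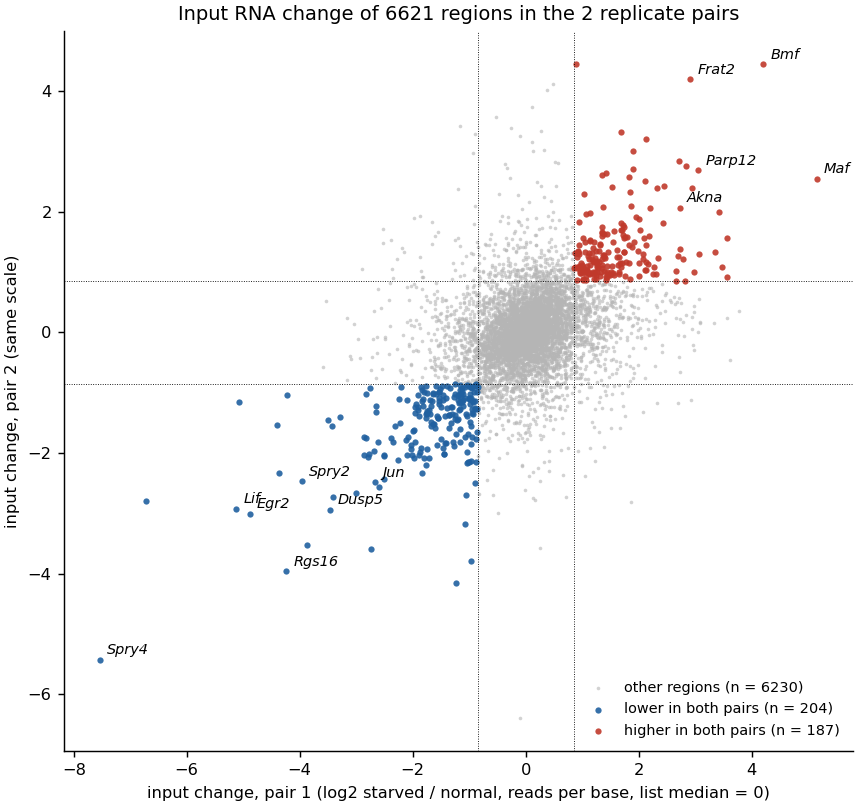
Each point is 1 of 6621 regions, with its input change in pair 1 on the x axis and in pair 2 on the y axis (log2 of starved over normal reads per base, list median at 0). Dotted lines mark 1.8-fold; the 204 blue regions fell and the 187 red regions rose past them in both pairs, and Spry4 lies farthest at the lower left, at -7.53 and -5.43.

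Summed over the regions of a deposited gene name, 221 of 2578 genes tested rose (8.57%) and 196 fell (7.6%) by the same test. By 1.8-fold in both pairs, 93 genes rose (3.46%) and 87 fell (3.24%) of 2689, and 37.9% of genes rose and 30.1% fell in both pairs by any size. With TMM factors, 28.3% of the genes called had risen, against 53% here. The deposited name is that of the nearest promoter, and only 4012 of the 6621 regions (60.6%) lay in an exon of the gene they are named for. Of the 391 regions past 1.8-fold in both pairs, 112 did not. Regions were therefore also assigned to the gene whose exon they lie in, which gave 2183 genes, of which 122 of 2095 tested rose (5.82%) and 110 fell (5.25%), and 79 (3.62%) and 77 (3.53%) passed 1.8-fold in both pairs. Where a named gene is not the one whose exon holds the reads, the latter is given.

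The falling regions were led by immediate-early genes and by inhibitors of ERK signalling. All 12 falling genes with the largest change common to both pairs are described, starting with the transcription factors. Fosb (chr7:19309061-19310140, 5′ UTR), a partner of Jun in the AP-1 complex, had 105 and 178 input reads per kb in normal replicates 1 and 2. Starved replicate 1 had no read there in 460 bp of peak, and starved replicate 2 had 2 reads in 230 bp. From counting alone, the 95% interval (exact) of the fall in pair 2 was 4.72- to 144-fold, and the fall in pair 1 was at least 11.6-fold at its lower bound. Egr2 (chr10:67539541-67542080, exon), a zinc finger factor induced by growth factors, had 143 and 292 reads per kb in normal cells, against 1.47 and 30.7 after starvation. Its level in starved replicate 1 rests on 1 read, so that the fall in that pair had a counting interval of 15.8- to 3515-fold. The peaks of Egr2 were 2480 and 2410 bp long in normal and 680 and 880 bp in starved MEFs. Jun (chr4:95049671-95052350, exon) fell from 1684 and 2568 reads per kb to 242 and 388, a log2 fold change of -2.58 (SE 0.11, edgeR adjusted p = 5.51e-07). Jun thus stayed readily measured in starved cells, with 649 and 930 reads, while Fosb and Egr2 were close to the limit of counting.

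The gene lists used here and below were chosen with earlier results of these data known, and some genes are on several lists. Their counts beside the share of all genes are thus descriptions and not tests. Over the list of serum immediate-early genes, 10 of 43 had a region in all 4 lists. Of these 10, 9 fell and none rose by the gene test in edgeR, against 7.6% and 8.57% of all genes. By edgeR 0 rose at an unadjusted p under 0.05. DESeq2, run without peak lengths, called 0 upwards and 8 downwards. The median change was -1.33, against 0.05 over all 2689 genes. Csrnp1, a nuclear protein named for its cysteine and serine content, fell by 1.78 on the log2 scale (SE 0.14, edgeR adjusted p = 1.09e-15), from 341 and 443 reads per kb to 93.7 and 105. Klf2, Rhob, Ier5, Mafk and Junb made up the rest of the falling members, and the mean changes of the 9 genes lay between -3.95 and -0.46. Junb had -0.04 in pair 1 and -0.89 in pair 2, was not called by DESeq2 nor when regions were assigned by exons, and 8 of 10 members fell in that count. Without the replicate term 5 of the 9 calls remained.

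Spry4, one of the Sprouty inhibitors of receptor tyrosine kinase signalling, had the largest fall common to both pairs. Its region on chromosome 18 had 563 and 925 input reads per kb in normal cells, against 2.78 and 18.1 after starvation, where the reads numbered 3 and 62. Its peaks were 4730 and 4800 bp long in normal and 1080 and 3420 bp in starved MEFs. The starved level was thus measured over fewer bases. The fall in pair 1 had a counting interval of 63.4- to 899-fold. Spry2 (chr14:105892281-105894040, exon) fell from 1112 and 1439 reads per kb to 65.4 and 220, a log2 fold change of -3.14 (SE 0.28, edgeR adjusted p = 7.57e-05). Dusp5 (chr19:53529041-53529910, exon), a nuclear phosphatase of ERK, fell from 863 and 1079 to 71.4 and 119 reads per kb, a log2 fold change of -3.18 (SE 0.20, edgeR adjusted p = 6.31e-06). An antisense transcript overlaps this region, and reads of the 2 cannot be told apart because the use of strand in counting is not stated. Lif (chr11:4268811-4272530, 3′ UTR), a cytokine of the interleukin 6 family, fell from 109 and 200 reads per kb to 2.86 and 22.2 (edgeR adjusted p = 0.000182), with 5 and 12 reads in starved MEFs. The peaks of Lif were 3520 and 3720 bp long in normal and 1750 and 540 bp in starved MEFs. In each of these 4 genes both normal samples lay above both starved samples, which their choice by size fixes within a pair.

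Of 23 genes on the list of ERK feedback genes, 11 had a region in all 4 lists. By the gene test in edgeR 7 fell and none rose, against 7.6% and 8.57% of all genes, with a median change of -1.81. Upwards 1 had an unadjusted p under 0.05 by edgeR, and DESeq2 called 0 upwards and 7 downwards. The others that fell were Dusp1, Dusp4 and Spry1, and the 7 mean changes lay between -6.48 and -1.23. Of the 7 calls, 6 remained without the replicate term. Members not called were Ets2, Etv5, Spred2 and Spred3, with mean changes between -0.89 and 0.33.

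Among the other falling genes with the largest common change, Rgs16 (chr1:153743431-153745580, 3′ UTR), which speeds GTP hydrolysis by G protein alpha subunits, had 1291 and 1872 input reads per kb in normal cells, against 62.5 and 101 after starvation. The log2 fold change was -4.09 (SE 0.14, edgeR adjusted p = 1.57e-07), and it was the lowest adjusted p of the 24 genes chosen by size. Enc1 (chr13:97250311-97253060, 3′ UTR), an actin-binding kelch protein, fell from 536 and 934 to 85.7 and 190 reads per kb, a log2 fold change of -2.28 (SE 0.15, edgeR adjusted p = 8.94e-06). The peaks of Enc1 were of like length in all 4 lists (2590 to 2750 bp), while those of Rgs16 were 2150 and 2000 bp in normal and 1120 and 1450 bp in starved MEFs. Apln (chrX:48025591-48027070, 3′ UTR), which encodes the peptide ligand apelin, had 35 and 49 reads in normal cells, against 2 and 8 after starvation. Its edgeR adjusted p was 0.0413, and from counting alone the fall was 2.2- to 73.5-fold in pair 1 and 2.53- to 13.2-fold in pair 2. Shroom4 (chrX:6415581-6416010, promoter), a cytoskeletal regulator, changed by -2.80 and -2.06 and did not pass the test (edgeR adjusted p = 0.072). Over its 4 regions the log2 fold change was smaller, -0.65 (SE 0.15, edgeR adjusted p = 0.000783).

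Nuak2, an AMPK-related kinase on the list of YAP and Hippo pathway genes, fell in all 4 of its regions. Its most changed region (chr1:132331181-132333250, exon) had 302 and 356 reads per kb in normal and 26.1 and 45.2 in starved MEFs (log2 fold change -3.04, SE 0.22, edgeR adjusted p = 1.89e-05). Of the 8 members tested on this list, 4 fell and none rose by edgeR, against 7.6% and 8.57% of all genes. Upwards 1 had an unadjusted p under 0.05 by edgeR, and DESeq2 called 0 upwards and 4 downwards. The other 3 that fell were Amotl2, Lats2 and Ajuba, of which Ajuba encodes a LIM protein that binds LATS kinases. Amotl2, which binds YAP at cell junctions, fell from 1633 and 1980 reads per kb to 517 and 677 (log2 fold change -1.42, SE 0.10, edgeR adjusted p = 1.67e-17). Lats2, a kinase that phosphorylates YAP, fell by 0.86 (SE 0.15, edgeR adjusted p = 1.16e-05). The median change of the list was -0.32 by deposited names and -0.75 by exons.

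All 3 measured members of the inflammatory and NF-kB list fell, Lif among them, with a median change of -1.64. By edgeR 7.6% of all genes fell. None of the 3 rose by edgeR, 0 also at an unadjusted p under 0.05, and DESeq2 called the same numbers. Csf1, the growth factor of macrophages, fell from 2906 and 4618 reads per kb to 1163 and 1578, by 1.25 on the log2 scale (SE 0.08, edgeR adjusted p = 5.03e-20). Socs3, a feedback inhibitor of cytokine receptors, fell from 109 and 159 to 27.1 and 50.9 reads per kb, by 1.59 (SE 0.35, edgeR adjusted p = 0.000509). On the list of cytokine and growth factor signalling inhibitors, 3 of 12 members fell by edgeR, against 7.6% of all genes. They were the SOCS family genes Socs3, Socs5 and Cish. DESeq2 called 2 of them and not Cish. Cish had 101 and 95.6 reads per kb in normal against 28.2 and 19 in starved MEFs. The 1 member that rose on this list by its deposited name, Phlpp2, lies in exons of Ap1g1, and no member rose by exons. None of these 3 SOCS calls held without the replicate term.

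**Figure D2:**
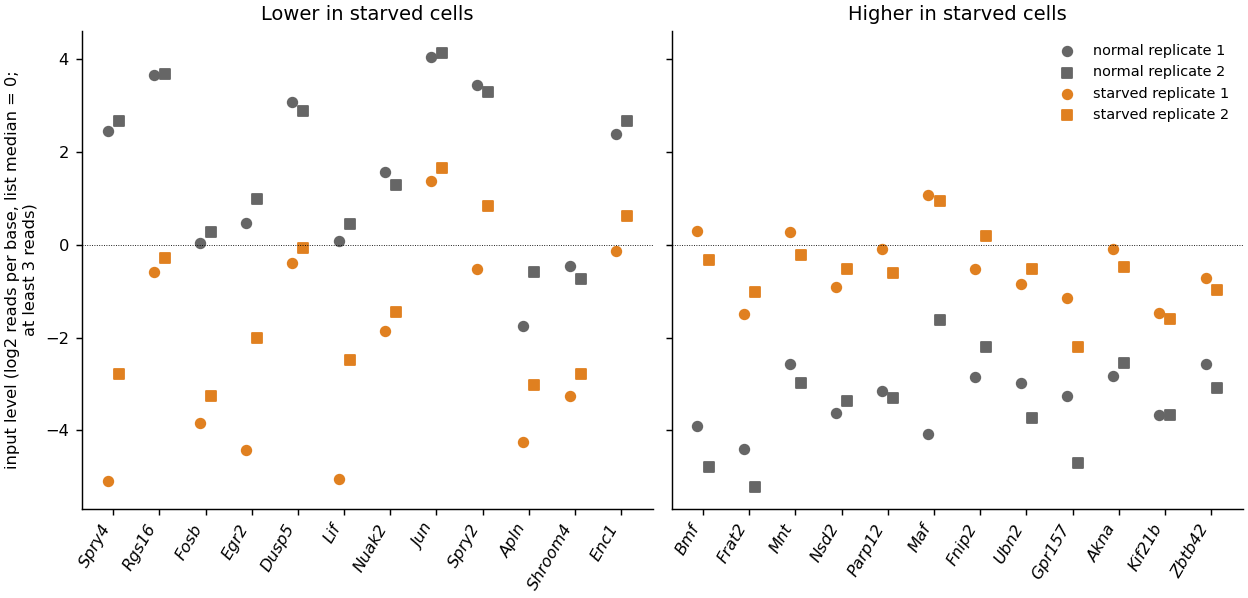
Input level (log2 reads per base, list median at 0, at least 3 reads) of the 12 falling and 12 rising genes with the largest change common to both pairs. Circles are replicate 1, squares replicate 2, grey is normal and orange starved; in each of the 24 genes both grey points lie on the same side of both orange points, which the choice of genes fixes within a pair.

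The strongest rise was in Bmf (chr2:118528881-118532850), a BH3-only member of the BCL2 family that promotes apoptosis. Normal MEFs had 0 and 1 input reads in peaks of 440 and 560 bp, and starved MEFs had 448 and 356 reads in peaks of 3900 and 3620 bp. From counting alone the rise was at least 14.9-fold in pair 1 and 11.6- to 2582-fold in pair 2, both as bounds of a 95% interval, and the region test gave an edgeR adjusted p of 4.03e-05. Because the normal peaks cover a small part of the region, the normal level was measured over fewer bases than the starved level. Bcl2l11 (BIM), another BH3-only gene, had 62.7 and 133 reads per kb in normal and 230 and 249 in starved MEFs. The log2 fold change was 1.52 (SE 0.23, edgeR adjusted p = 4.49e-07). Both genes are known FOXO targets. They were the 2 of 6 members of the BCL2 family list that rose, against 8.57% of all genes. None on the list fell by edgeR, 1 had an unadjusted p under 0.05 downwards, and DESeq2 called 2 upwards and 0 downwards.

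Bmf and Bcl2l11 were also on the list of FOXO factors and targets, where 3 of 10 members rose and 1 fell, against 8.57% and 7.6% of all genes, with a median change of 0.47. Without the replicate term only the call of Bmf remained of the 3, and the edgeR adjusted p of Bcl2l11 was 0.0617. The third was Foxo3 itself, one of the FOXO factors that AKT inhibits. Foxo3 had 208 and 249 reads per kb in normal and 314 and 369 in starved MEFs, summed over 3 regions. Its log2 fold change was 0.77 (SE 0.11, edgeR adjusted p = 2.32e-07, and 0.141 without the replicate term), below 1.8-fold in both pairs. Foxo1, with 2 regions, changed by 0.68 and 0.38 and did not pass the test (edgeR adjusted p = 0.124). The member that fell was Irs1, the adaptor of the insulin receptor, with changes of -0.97 and -0.33 (log2 fold change -0.65, SE 0.12, edgeR adjusted p = 4.62e-05).

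The FOXO site GTAAACA, searched on both strands in promoters from 250 bases before to 50 after the start, was found in 3 of 65 promoters of rising genes (4.62%), in 0 of 58 of falling genes and in 36 of 1686 of all measured genes (2.14%). Over the whole promoter table it was present in 3.55%. The 3 are shown because 2 of them belong to rising genes described here, with the site in capitals, as printed on the gene's strand.
Bcl2l11 promoter, chr2:128125801-128125827 (+): agacactaggGTAAACAcgccggggtg
Frat2 promoter, chr19:41848118-41848144 (-): cgtcacccatTGTTTACaaatcaaccc
Pml promoter, chr9:58249909-58249935 (-): atgccgggctTGTTTACttgcttgttt
In the same promoters the CArG box, bound by serum response factor, was found in 2 of 58 falling (3.45%), 2 of 65 rising (3.08%) and 1.25% of all measured genes. Dusp5 holds it at 2 places that follow each other directly, with the box in capitals.
Dusp5 promoter, chr19:53529053-53529082 (+): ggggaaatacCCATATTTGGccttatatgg
Dusp5 promoter, chr19:53529063-53529092 (+): ccatatttggCCTTATATGGgcactcacgt
The cAMP response element TGACGTCA was found in 5 rising (7.69%) and 4 falling promoters (6.90%), against 3.20% of all measured genes. The E-box CACGTG was found in 9.23%, 10.3% and 10.5%, and TGATGCAAT, an ATF4 response site, in 1 rising and 0 falling promoters. These shares rest on few genes, and a match is not a measured binding site.

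On the list of mTORC1, AMPK and TFEB pathway genes, 2 of 9 members rose and 1 fell by deposited names, against 8.57% and 7.6% of all genes. The rising members were Flcn, the folliculin gene, and Fnip2, which encodes a protein that binds folliculin. Flcn had 125 and 135 reads per kb in normal and 285 and 260 in starved MEFs (log2 fold change 1.26, SE 0.14, edgeR adjusted p = 2.6e-10). When regions were assigned by exons Flcn had 12 regions, all of which rose in both pairs, with mean changes of 0.83 to 1.66. Fnip2 had 48.4 and 109 reads per kb in normal and 123 and 219 in starved MEFs (log2 fold change 1.35, SE 0.16, edgeR adjusted p = 4.73e-10). Neither call held without the replicate term (edgeR adjusted p = 0.0776 for Flcn and 0.0947 for Fnip2). The most changed region of Fnip2 (chr3:79514901-79515460, exon) held 0 and 18 reads in normal and 26 and 64 in starved MEFs. The member named as falling, Tbc1d7, lies in exons of Gfod1, so that by exons 3 of 11 rose and none fell, against 5.82% and 5.25% of all genes. The third by exons was Tsc1, a subunit of the complex that restrains mTORC1, with changes of 1.82 and 0.76 (log2 fold change 1.17, SE 0.29, edgeR adjusted p = 0.0439). Mtor itself changed by 0.09 and 0.53 and did not pass the test (edgeR adjusted p = 0.374).

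Of 11 members of the autophagy machinery list, 2 rose, where 8.57% of all genes did, and none fell by edgeR (0 downwards at an unadjusted p under 0.05, and DESeq2 called 1 upwards and 0 downwards). Zfyve1 (DFCP1), a phosphoinositide-binding protein of the membranes where autophagosomes form, had 126 and 181 reads per kb in normal and 232 and 287 in starved MEFs. The log2 fold change was 0.96 (SE 0.14, edgeR adjusted p = 2.32e-07). Zfyve26 (spastizin) had changes of 0.92 and 0.33 (edgeR adjusted p = 0.0285, and 0.0501 by exons). The median change of the list was 0.18, near the 0.05 over all genes.

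Mnt, a transcriptional repressor that competes with Myc for the partner Max, rose in all 4 of its regions. The gene had 147 and 178 reads per kb in normal and 487 and 519 in starved MEFs (log2 fold change 1.83, SE 0.12, edgeR adjusted p = 3.72e-19), and the call held without the replicate term. Mxd1, a related repressor, had changes of 1.21 and 0.89 (edgeR adjusted p = 0.0403, and 0.0842 by exons). These were the 2 rising of 7 members on the list of Myc network and G1 genes, against 8.57% of all genes. None fell by edgeR, 0 also at an unadjusted p under 0.05, and DESeq2 called 1 upwards and 0 downwards.

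Maf (chr8:115705041-115707920, exon), a basic leucine zipper transcription factor, had 6 and 63 input reads in normal and 384 and 516 in starved MEFs. Its log2 fold change was 3.31 (SE 0.40, edgeR adjusted p = 0.000697), and the 2 pairs differed, at 5.15 and 2.54. Frat2 (chr19:41846741-41848190, exon), which binds GSK3 and favours Wnt signalling, had 2 and 2 reads in normal and 27 and 68 in starved MEFs. From counting alone it rose 2.84- to 98.1-fold and 7.34- to 232-fold (edgeR adjusted p = 0.00747). Summed over the 2 regions named for Frat2, the log2 fold change was 1.06 (SE 0.47) and did not pass the test (edgeR adjusted p = 0.134). Akna (chr4:63394531-63395710, exon), an AT-hook protein, had 14.5 and 25 reads per kb in normal and 88 and 88.5 in starved MEFs (log2 fold change 2.37, SE 0.46, edgeR adjusted p = 0.0133).

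The remaining rising genes with a large common change rest on few normal reads. Nsd2, a histone H3 lysine 36 methyltransferase (chr5:33819941-33820980), had 0 and 3 reads in normal and 24 and 56 in starved MEFs. Parp12 (chr6:39117621-39118510), a mono-ADP-ribosyltransferase, had 3 and 1 against 28 and 40. Ubn2 (chr6:38433691-38434550), a subunit of the HIRA histone chaperone complex, had 2 and 3 against 32 and 40. All 3 passed the region test, with edgeR adjusted p-values of 0.0387, 0.0272 and 0.042. Gpr157, Kif21b and Zbtb42 did not, at 0.125, 0.169 and 0.0542, although starved levels were higher than normal levels in both pairs. Summed over their 2 regions, Gpr157 and Zbtb42 passed the gene test (edgeR adjusted p = 0.00987 and 0.0123), and Kif21b did not (0.16).

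Wnt pathway genes included 3 that rose of 10 tested, where 8.57% of all genes rose, and none fell by edgeR (0 at an unadjusted p under 0.05, and DESeq2 called 2 upwards and 0 downwards). Fzd1, a Wnt receptor, had 220 and 190 reads per kb in normal and 364 and 336 in starved MEFs (log2 fold change 0.96, SE 0.13, edgeR adjusted p = 4.78e-08). Bcl9l and Bcl9, cofactors of beta-catenin, had log2 fold changes of 0.86 and 0.49. By exons 3 of 11 rose, with Frat2 (edgeR adjusted p = 0.0127) in place of Bcl9 (0.067). The median change of the list was -0.03 by names and 0.29 by exons, so no direction is given for the list. In the TGF-beta and BMP feedback list, Smad7 fell while Smad6 and Ski rose. Smad7, an inhibitory SMAD, had 559 and 810 reads per kb in normal and 168 and 256 in starved MEFs (log2 fold change -1.51, SE 0.10, edgeR adjusted p = 4.17e-18). Smad6, the other inhibitory SMAD, changed by 1.08 and 0.63 (log2 fold change 0.85, SE 0.20, edgeR adjusted p = 0.0013), and DESeq2 called neither rising member. The list median was 0.05, and -0.06 with TMM factors. Of 3 clock genes, Per1 and Tef rose by 0.59 and 0.50 on the log2 scale by edgeR, against 8.57% of all genes. DESeq2 called 0 of them, and neither call held without the replicate term. By exons 1 of 3 clock genes rose, against 5.82% of all genes.

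In 7 lists no gene was called by edgeR. These were ATF4 amino acid response, sterol and fatty acid synthesis, SRF and actin cytoskeleton, p53 pathway, m6A machinery, mRNA decay, and ribosomal protein and translation factor genes, with 36 members tested. At an unadjusted p under 0.05, 0 rose and 5 fell by edgeR, DESeq2 called 0, and limma called 2 downwards. Slc7a1, a cationic amino acid transporter on the ATF4 list, changed by -0.24 and -0.12. By exons the other ATF4 members, Stc2 (0.74 and 1.38), Slc7a11 (0.71 and 0.47) and Aars (0.34 and 0.40), rose in both pairs. None of them passed the test, and Stc2 and Slc7a11 each had 16 reads in normal replicate 1. The median of the ATF4 list was -0.18 by names and 0.48 by exons. Alkbh5, an m6A demethylase, changed by 0.16 and 0.12. By exons 1 m6A reader, Igf2bp1, fell (log2 fold change -0.71, SE 0.16, edgeR adjusted p = 0.0297). Ythdf3 had peaks in each list but no region shared by all 4, and so no input change is given for it. None of the 5 regions named for ribosomal or translation genes lay in exons of those genes.

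The large families were counted in the same way. Solute carrier genes had 3 rising and 2 falling of 48, against 8.57% and 7.6% of all genes. Zfp zinc finger genes had 6 rising and 5 falling of 62. Zfp503 and Zfp703, a pair of related repressors, rose by 1.04 (SE 0.11) and 0.94 (SE 0.10). Histone lysine modifiers and remodellers had 5 rising and none falling of 23 by edgeR (0 downwards at an unadjusted p under 0.05, and DESeq2 called 1 upwards and 0 downwards), and by exons 3 rising of 31. Setd1b, an H3 lysine 4 methyltransferase, rose by 0.74 (SE 0.11, edgeR adjusted p = 9.2e-07), and the region named for Kdm4b lies in Uhrf1. The 1 rising member of the collagen, laminin and integrin list, Col20a1, lies in Arfgap1, and the 1 falling member of the hypoxia list, Hk2, was not called by exons.

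**Figure D3:**
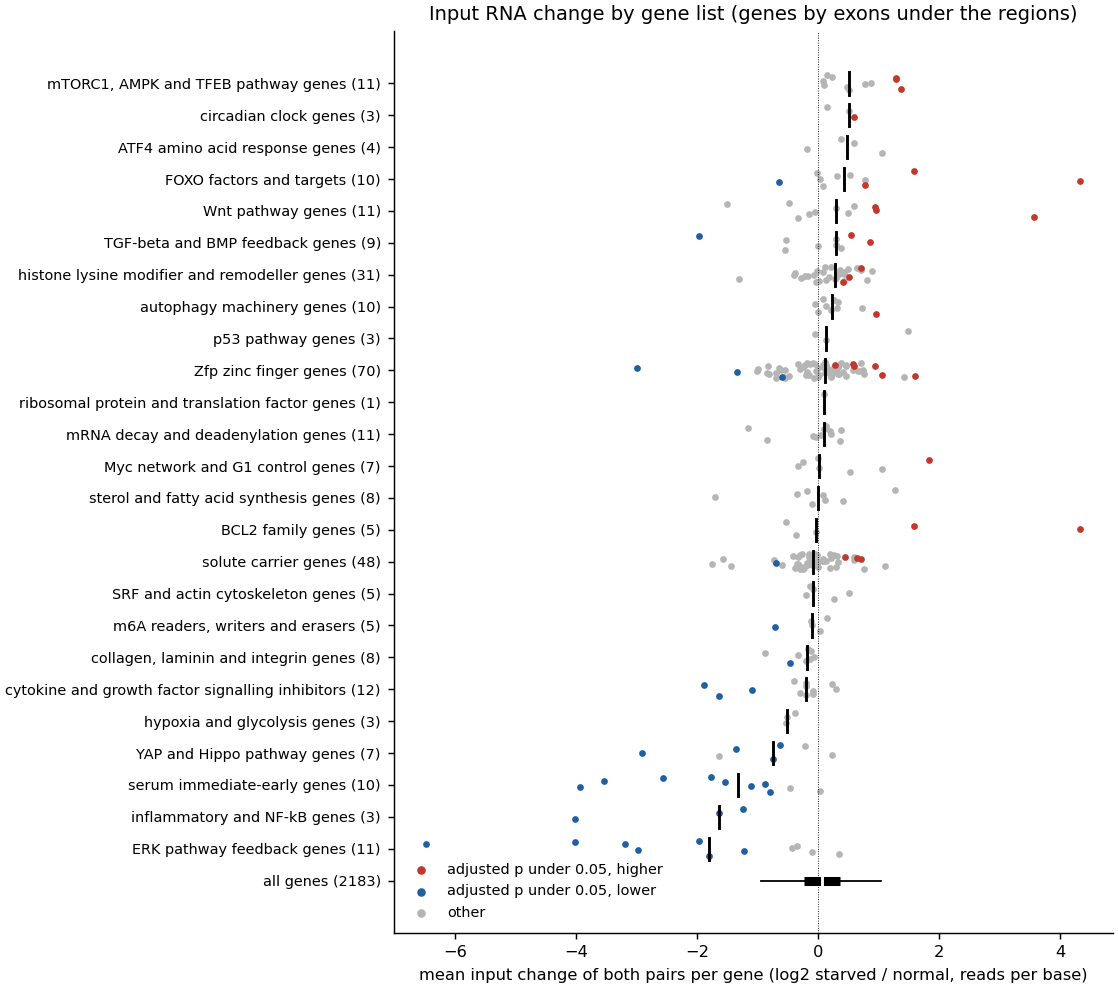
Mean input change of both pairs (log2, x axis) of each gene, assigned by exons, in 25 gene lists, with the number of genes in brackets. Points are genes (red higher and blue lower by edgeR, grey other), black bars are list medians, and the bottom row shows the middle 50% (thick) and 90% (thin) of all 2183 genes; the ERK feedback, NF-kB and immediate-early lists lie lowest, with medians of -1.81, -1.64 and -1.33.

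Other regions of a gene were set beside its most-read region. Their values come from the same input reads. Among genes whose most-read region rose past 1.8-fold in both pairs, 47 of 61 other regions (77.0%) rose in both pairs, against 30.3% of such regions over all genes. For falling genes it was 57 of 59 (96.6%), against 30.4%. These regions share the 4 libraries and the transcript, so they are not replicates of the condition and give no independent check of the change. Genes with at least 4 regions by exons were also picked if their summed regions passed 1.8-fold in both pairs and the edgeR test. Among them, all 8 regions of Csf1, 7 of Amotl2, 6 of Iffo2 and 5 of Epha2 fell. All 5 regions of Vash2 and 4 of Pag1 rose. The choice of these genes by their summed change partly fixes this agreement.

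**Figure D4:**
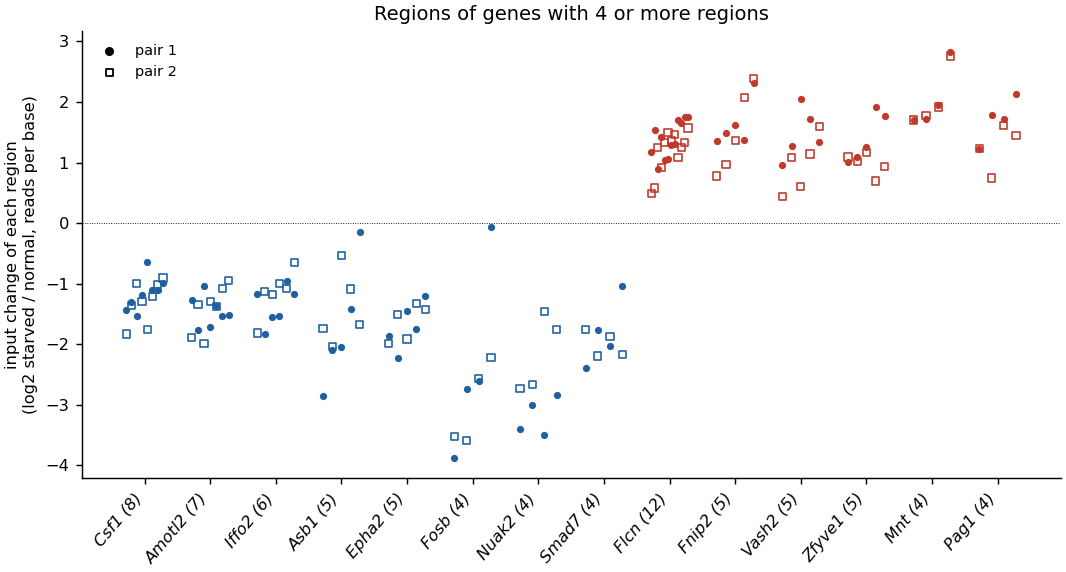
Input change of each region (log2 of starved over normal reads per base) in the 14 genes with 4 or more regions that passed 1.8-fold in both pairs and the edgeR test; filled circles are pair 1 and open squares pair 2, and numbers of regions are in brackets. All regions of a gene lie on 1 side of 0, from 12 of Flcn above it to 8 of Csf1 below it. The choice of genes by their summed regions partly fixes this.

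The IP reads of the same regions were not used for the fold cutoff. They moved the same way as the input in both pairs in 182 of 187 rising regions (97.3%) and 198 of 204 falling regions (97.1%). Over all regions 34.9% rose and 33.6% fell in the IP. The median IP change was 0.83 in rising and -1.12 in falling regions, smaller in size than the median input change of 1.38 and -1.48. A region had to be enriched over input in each list to be called, so the IP partly follows the input by construction. IP and input reads were also divided by the same peak lengths, so a change of length enters both. The median log2 change of summed length in pairs 1 and 2 was 0.31 and 0.15 in rising regions. In falling regions it was -0.02 and 0. Spry4 changed by -5.02 and -5.00 in the IP, and Bmf by 2.71 and 2.43. The 1 region that moved the other way is named for Synb and lies in Gm21451, with 369 and 18 normal input reads against 1 and 3.

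**Figure D5:**
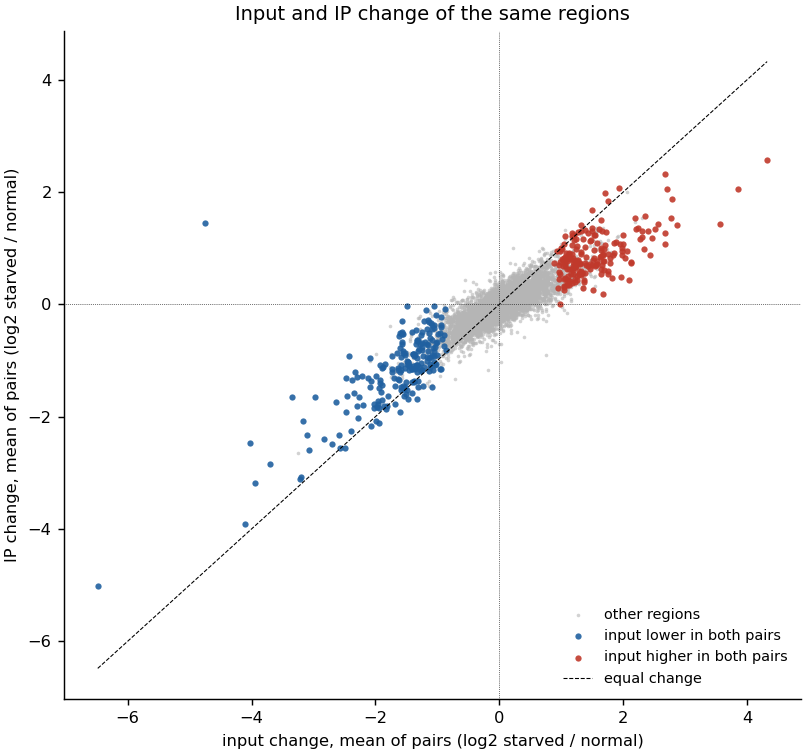
Mean input change (x axis) against mean IP change (y axis) of each of 6621 regions, both log2 of starved over normal reads per base; blue and red regions fell or rose past 1.8-fold in the input in both pairs. Most coloured points lie between the horizontal line and the line of equal change, and 1 blue point at an input change of -4.76 lies above 0 in the IP.

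Of the falling regions 13.2% were annotated as 5′ UTR, against 7.49% of rising and 6.06% of all regions. The 3′ UTR held 16.2%, 18.2% and 14.6%, and exons held 50%, 48.7% and 57.6%. No test was made of these shares.

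The regions held between about 1877610 and 3051100 input reads in each list, with medians of 61 to 103 reads per region, and 76 to 273 regions had at most 3 reads. Reads outside called peaks are not in the files, so the depth of the input libraries is unknown, and RNA without a peak in all 4 lists is not seen. Of 12 fibroblast markers 8 had a peak, and 4 had one in all lists, with 5639 to 18138 summed input reads, while Col1a1, Vim, Twist1 and Lum had none. Muscle, neural and pluripotency markers had no peak, the epithelial marker Cldn4 had 0 input reads, and the endothelial marker Kdr had 0 to 5. Peaks named for the immune marker Csf1r lie in exons of Pdgfrb, a fibroblast gene. Fewer cells of a type and less RNA per cell cannot be told apart in such bulk samples.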

How the data were processed

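Input and IP samples of normal and starved MEFs (2 replicates each) were analysed. Per the submitters' processing notes and the study's methods, reads were trimmed with Trimmomatic, aligned to mm10 with TopHat2 2.0.13, compared as IP against input with diffReps to call peaks, and peaks were named with HOMER by the nearest promoter. In 1 list the deposited IP and input values are whole read counts. In the others they are normalized signal, that is, counts multiplied by 1 factor per library. The log2 fold enrichment and p-value columns computed by the authors compare IP with input. They were used only in an alternative that kept peaks at the thresholds of the study. Whole read counts were recovered from the deposited signal for 100% of values (tolerance 0.1 reads). The lists do not name their inputs, so each input value was taken as that of the same condition and replicate. The use of strand in counting is not given in the sources used here.

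Peaks overlapping by 1 bp were merged with bedtools 2.31.1, and reads and lengths were summed per list. Regions with a mean of at least 10 reads were tested with edgeR 4.0.16 (quasi-likelihood, R 4.3.3) with log length and list median as offset and the replicate number as a term, because the study compared within replicates and same-numbered samples deviated together (r = 0.31). P-values were adjusted by Benjamini-Hochberg over all regions or genes, with a threshold of 0.05. Intervals of a fold are exact 95% intervals and cover counting error only. An unpaired permutation test of 2 against 2 samples, two-sided, cannot go below p = 0.333. On simulated data with changes of 2.5-fold the region test recovered 175 of 197 changed regions, with 6 false calls. The fitted dispersion was 0.0196 there and 0.0351 in the real regions. The simulation was thus less noisy, and its rates do not carry over to these data.

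Genes named are the 12 in each direction with the largest smaller change of the 2 pairs (at least 20 reads in the higher condition, in an exon of the named gene), up to 4 called members of each of 25 lists, and Foxo3 and Ythdf3. Others named were chosen after their values were seen. 1 gene that this rule names is not reported here. The members and lists were chosen with earlier results of these data known. Alternatives were DESeq2 1.42.0, limma 3.58.1, TMM scaling, other filters and overlaps, assignment by exons and leaving out each input. Fits with an input left out had no replicate term. DESeq2 used its own size factors and no peak length, so its calls compare read counts and not reads per base. Sequences are from RefSeq and its GRCm38 genome (mm10).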

Additional observations from a re-analysis of the deposited data

How the results depend on the processing

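Replicate numbers paired the samples (r = 0.31), and without the replicate term edgeR called 14 rising and 47 falling regions, and 10 rising and 31 falling genes, all among those called with it. By TMM without length edgeR called 0 rising and 0 falling regions (484 and 447 at an unadjusted p under 0.05) and 5 and 19 genes. DESeq2 called 71 and 105 regions and 73 and 113 genes, and limma 226 rising regions. TMM factors with length, chosen after seeing the data, shifted every change by -0.10 on average and gave 267 falling regions and 110 rising genes, so that rising genes were 28.3% of the calls in place of 53% (39.2% by DESeq2). Leaving out 1 input in turn gave 25 to 95 rising and 65 to 127 falling regions, and 12 to 43 rising and 38 to 72 falling genes. Genes by exons numbered 122 and 110. The count of regions past the cutoff in both pairs was 372 and 365 at 1.5-fold, 77 and 119 with 50% reciprocal overlap, and 299 rising without length. In 1 pair alone, with the other replicate of both conditions left out, 533 to 730 regions rose and 557 to 640 fell past 1.8-fold.

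With TMM factors, list medians moved to 0.36 (FOXO), -0.43 (YAP), -0.21 (SRF), -0.058 (TGF-beta), 0.078 (autophagy), 0.21 (mTORC1), -0.33 (signalling inhibitors), -0.14 (m6A), 0.040 (mRNA decay), 0.25 (ribosomal), -0.13 (solute carriers), 0.013 (Zfp) and 0.14 (histone modifiers). By exons they moved to 0.48 (ATF4), -0.75 (YAP), 0.29 (TGF-beta), 0.29 (Wnt), 0.0041 (Myc), 0.23 (autophagy), 0.50 (mTORC1), -0.10 (m6A), 0.094 (ribosomal), -0.084 (solute carriers) and 0.27 (histone modifiers), and those of the BCL2 family and the p53 pathway changed sign, to -0.04 and 0.13. Of 83 named genes none reversed. Of the 78 that were called, 22 kept the call without the replicate term, 15 by TMM without length, 48 by DESeq2 (5 had no adjusted p) and 78 by limma. Adjusted p-values of genes depended on how regions were assigned: by edgeR Jun had 4.86e-26 by names and 2.27e-05 by exons. The edgeR test takes the spread of a gene partly from all genes, with prior degrees of freedom of 52.8 by names and 6.3 by exons. The 1 region of Rgs16 had an edgeR adjusted p of 1.57e-07 in the region test and 9.44e-31 in the gene test. Very small adjusted p-values of genes thus rest mostly on spread shared across genes, not on the 2 replicates. The cause of the other differences was not tested. Genes with few reads in 1 condition are limited by depth.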
